A study of Mus musculus with 12 samples.

Results

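Mouse chromosomes 13 and 16 were read in 4 renal cell carcinomas and 8 malignant lymphomas by array comparative genomic hybridisation, in which tumour DNA and reference DNA compete for the same probes. The 2 chromosomes were selected on the log2 ratios of these same arrays, chosen by the losses seen on them in carcinomas, so the calls in carcinomas are given here as a description, with no test against lymphomas. The members were the probes that are not controls and lie on chromosome 13 or 16 in build mm9, after leaving out the T cell receptor gamma region (chromosome 13, 18.9 to 19.8 Mb, 75 probes) and the immunoglobulin lambda region (chromosome 16, 18.9 to 19.7 Mb, 56 probes). They numbered 13733 of 170305 probes, 7515 on chromosome 13 and 6218 on chromosome 16. The median distance between neighbouring probes was 11.1 kb on each chromosome. The value of a probe was the log2 of the red (tumour) over the green (normal C57BL/6 kidney) processed signal, set to 0 at the most frequent level of each array's autosomes. Values above 0 mean that the tumour gave relatively more DNA than the kidney.

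All tumours came from C57BL/6 mice, either Mutyh knockout (KO) or wild type (WT). Mutyh is a DNA glycosylase that removes adenine paired with oxidised guanine. The treated groups began with 20 male mice each and were injected with ferric nitrilotriacetate (Fe-NTA), an iron chelate that damages the proximal tubules of the kidney. The 12 weeks of injections, 5 a week, began with 1 week at 3 mg iron/kg and went on at 5 mg iron/kg, and the mice were killed at about 120 weeks. The carcinomas all came from treated mice, 3 KO (KO1080, KO1097, KO1134) and 1 WT (WT1179). The lymphomas came from 2 treated KO mice (KO1077, KO1111), 3 treated WT mice (WT1113, WT1114, WT1121), 1 untreated KO mouse (KO1414) and 2 untreated WT mice (WT1405, WT1420). Each tumour was 1 array. Slide 1 held the 4 carcinomas and no other array, so slide and tumour type cannot be told apart.

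Loss of a chromosome or of part of it lowers the dose of every gene on it, and can expose a damaged copy of a tumour suppressor gene. The breakpoint of a partial loss marks where the chromosome was broken and rejoined. Mouse chromosome 13 carries Ptch1, Pik3r1, Msh3 and Xrcc4, and chromosome 16 carries Crebbp, Prkdc, Sod1 and Runx1, which act in signalling, DNA repair, defence against superoxide and blood cell development.

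The labels were checked against the arrays. Of 2 probes named Mutyh on chromosome 4, that at chr4:116490496-116490555 read between -3.22 and -2.40 in the 6 KO tumours and between -0.76 and 0.14 in the 6 WT tumours. The other, at chr4:116480656-116480715, did not separate them, at -0.57 to 0.28 in KO and -0.83 to 0.20 in WT tumours. A focal loss near the end of chromosome 12, where the immunoglobulin heavy chain genes lie, was called in 0 of 4 carcinomas and in 7 of 8 lymphomas, with none in WT1405. On every array at least 99.914% of the member spots stood well above background. The noise SD of a single probe, estimated from differences between neighbouring probes over all autosomes, was 0.115 to 0.171. Repeated spots of 69 members differed with an SD of 0.062 to 0.102.

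Chromosome 13 was lost in whole or in part in 3 of 4 carcinomas, and chromosome 16 in 1 of 4. KO1097 lost all of chromosome 13 and 79.9% of chromosome 16. KO1134 lost the first 35.7 Mb of chromosome 13, WT1179 lost a stretch of 18.5 Mb and gained another of 17.5 Mb on the same chromosome, and KO1080 had no call on either chromosome. A segment was called when its mean lay at least 0.25 from 0 over at least 5 probes. The 4 carcinomas held 9 calls in all and the 8 lymphomas held 0. Loss of chromosome 16 was thus seen in a single carcinoma, and chromosome 13 also carried a gain in 1 carcinoma.

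The probes on either side of each border between a call longer than 1 Mb and an uncalled stretch are printed here. They flank each border as fitted, which is an estimate from noisy probes and not a bound on the breakpoint. The steps were smallest at Kalrn (-0.28) and Muted (0.29), and the breakpoint may lie some probes away. Borders between adjoining losses of KO1097 on chromosome 16, near 22.6 and 37.6 Mb, are not printed. All printed probes come from the array files, which do not give the strand. The name of the tumour is followed by whether the probe is the last before or the first after the border, and by the gene name of the array. No base is marked.
KO1097 before, no gene name, chr16:11942021-11942080: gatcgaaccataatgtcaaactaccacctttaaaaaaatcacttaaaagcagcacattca
KO1097 after, no gene name, chr16:11964287-11964346: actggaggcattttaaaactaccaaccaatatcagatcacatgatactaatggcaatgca
KO1097 before, Kalrn, chr16:34366357-34366416: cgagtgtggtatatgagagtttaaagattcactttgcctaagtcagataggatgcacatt
KO1097 after, Kalrn, chr16:34376042-34376101: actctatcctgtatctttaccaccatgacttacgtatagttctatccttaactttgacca
KO1134 before, Muted, chr13:38717647-38717706: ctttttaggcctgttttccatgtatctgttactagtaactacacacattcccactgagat
KO1134 after, Muted, chr13:38725559-38725618: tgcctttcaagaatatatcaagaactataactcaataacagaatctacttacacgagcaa
WT1179 before, Cdyl, chr13:35798397-35798456: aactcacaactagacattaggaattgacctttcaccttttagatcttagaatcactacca
WT1179 after, Cdyl, chr13:35805638-35805697: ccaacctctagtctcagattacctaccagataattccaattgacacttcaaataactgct
WT1179 before, Ror2, chr13:53298253-53298312: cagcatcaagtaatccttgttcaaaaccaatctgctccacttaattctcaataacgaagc
WT1179 after, Ror2, chr13:53313819-53313878: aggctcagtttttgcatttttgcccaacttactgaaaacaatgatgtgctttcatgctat
WT1179 before, AK082072, chr13:84187838-84187897: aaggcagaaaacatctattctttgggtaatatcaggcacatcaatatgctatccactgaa
WT1179 after, no gene name, chr13:84225869-84225928: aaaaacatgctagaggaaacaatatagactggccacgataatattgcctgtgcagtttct
WT1179 before, no gene name, chr13:102761241-102761300: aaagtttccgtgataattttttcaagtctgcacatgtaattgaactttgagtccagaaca
WT1179 after, no gene name, chr13:102792921-102792980: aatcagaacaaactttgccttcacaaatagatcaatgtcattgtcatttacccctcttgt

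**Figure D1:**
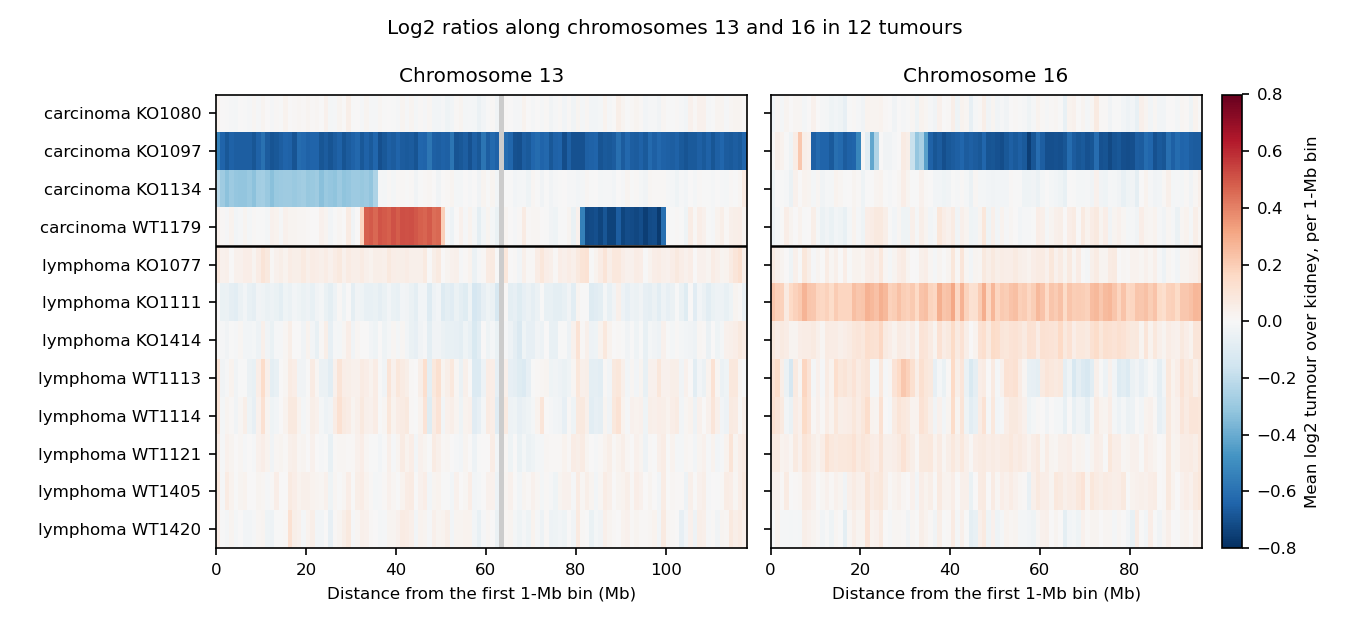
Log2 tumour over kidney in bins of 1 Mb, along chromosome 13 (left) and chromosome 16 (right), by distance from the first bin in Mb. Rows are the 4 carcinomas above the line and the 8 lymphomas below it, blue is lower and red is higher than the kidney DNA, and grey bins held fewer than 5 probes. KO1097 is blue along all of chromosome 13 and most of chromosome 16, and KO1111 is pale red along all of chromosome 16.

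Whole-chromosome means show how far the tumours stood apart. On chromosome 13 the mean log2 ratio of carcinomas was lowest in KO1097 at -0.66, followed by -0.098 in KO1134, -0.032 in WT1179 and 0.0024 in KO1080. Among lymphomas it was 0.046 in KO1077, -0.048 in KO1111, -0.016 in KO1414, 0.016 in WT1113, 0.025 in WT1114, 0.013 in WT1121, 0.019 in WT1405 and 0.0105 in WT1420. KO1097 and KO1134 read below all 8 lymphomas, while WT1179 and KO1080 lay inside the lymphoma range. The mean of WT1179 sat near 0 with a loss and a gain on the same chromosome, and its 1-Mb bins had an SD of 0.341, against 0.027 to 0.058 in the lymphomas.

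On chromosome 16 the mean was -0.48 in KO1097, -0.0046 in KO1134, 0.012 in WT1179 and 0.0006 in KO1080. Among lymphomas it was 0.031 in KO1077, 0.208 in KO1111, 0.078 in KO1414, 0.041 in WT1113, 0.039 in WT1114, 0.055 in WT1121, 0.039 in WT1405 and 0.011 in WT1420. KO1097 was the only tumour well below 0. KO1111 stood above the other 7 lymphomas. KO1080 and KO1134 read just below all 8 lymphomas, and WT1179 lay just above the lowest of them, WT1420. Averaged over tumours, the mean level was -0.196 ± 0.309 in carcinomas (SD, n = 4) and 0.0080 ± 0.029 in lymphomas (SD, n = 8) on chromosome 13. On chromosome 16 it was -0.119 ± 0.243 in carcinomas and 0.063 ± 0.062 in lymphomas.

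**Figure D2:**
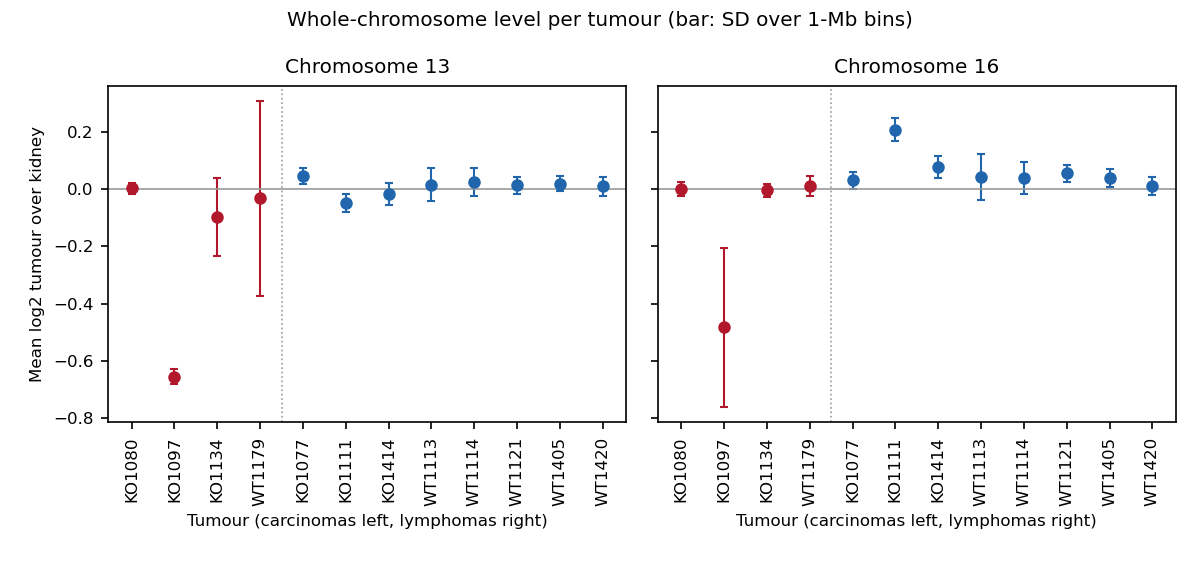
Mean log2 tumour over kidney of chromosome 13 (left) and chromosome 16 (right) in each tumour, carcinomas (red) left of the dotted line and lymphomas (blue) right of it. Bars are the SD over 1-Mb bins of the same tumour, not over animals. KO1097 lies at -0.66 and -0.48, and the wide bars of WT1179 on chromosome 13 and of KO1097 on chromosome 16 come from called and uncalled stretches side by side.

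In KO1097 chromosome 13 formed 1 segment of 117.28 Mb and 7514 probes at -0.66 ± 0.172 (SD over probes), a ratio of 0.635 to kidney DNA. All 831 genes of the array on that chromosome lay inside it. Loss of 1 of 2 copies in every cell would read -1, and a bulk sample cannot tell a loss in some of the cells from a smaller change in all of them. The depth varied little with the brightness or the base composition of the probes. With chromosome 13 probes split into 4 equal classes by green signal, the mean of KO1097 was -0.66 in the dimmest and -0.65 in the brightest class. Over 4 classes by GC percent it lay between -0.66 and -0.65.

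Chromosome 16 of KO1097 was divided into 9 segments, 5 of them called lost. From the first probe to 11.9 Mb the mean was 0.045, over 656 probes. A loss of 10.63 Mb followed at -0.64, then a short loss of 0.48 Mb at -0.28. Between 23.1 and 24.6 Mb the mean returned to 0.054, a further 0.87 Mb read -0.16 with no call, and a loss of 0.86 Mb followed at -0.63. The next 8.0 Mb, up to Kalrn, read -0.0008. From Kalrn the mean was -0.28 over 3.2 Mb, and from 37.6 Mb to the last probe it was -0.67 over 60.7 Mb. The lost stretches of KO1097 thus had 2 depths, with 3 segments between -0.67 and -0.63 and 2 at -0.28. The 2 shallow ones are the calls nearest to the threshold in this tumour. With median centring they read -0.25, just short of the threshold, and -0.248, and neither was called. At a threshold of 0.4 neither passes, so the call that begins at Kalrn depends on the setting.

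The borders of KO1097 between lost and uncalled stretches are given with the named genes in or nearest to them. Of the 6218 probes on chromosome 16, 4142 carry a gene name, so a named gene nearby is not a result about these borders. Kalrn had probes on both sides of the border at 34.4 Mb, which lay between 2 probes 9.62 kb apart. AF177147 had probes on both sides of the border at 23.1 Mb. The border at 26.4 Mb lay between probes 6.85 kb apart, of which 1 is named Cldn1, a claudin of tight junctions. The first border, at 12.0 Mb, lay 15.9 kb from Gm9961, and the border at 25.5 Mb lay 43.4 kb from Tprg.

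In KO1134 the loss ran from the first probe of chromosome 13 to a border in Muted, a gene of lysosome-related organelle biogenesis, where 7.85 kb separated the last lost probe from the next. The mean was -0.298 ± 0.151 (SD over 2395 probes) in the loss and -0.0038 ± 0.131 over the 81.56 Mb after it. The step of 0.29 was larger than the SD over probes on either side. The call itself rested on how 0 was set: with each array centred on the median of its autosomes, the same segment kept its borders and read -0.23, short of the threshold.

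WT1179 had 5 segments on chromosome 13. The first 32.79 Mb read 0.0083. The gain ran between a border in Cdyl, which encodes a chromodomain protein, at 35.8 Mb and a border in Ror2, a receptor tyrosine kinase for Wnt ligands, at 53.3 Mb. Its mean was 0.486 ± 0.136 (SD over 1180 probes), a ratio of 1.40, where 3 copies in place of 2 in every cell would read 0.58. The loss ran from 84.2 to 102.8 Mb at -0.72 ± 0.192 (SD over its probes), a ratio of 0.608. The last probe before it is named for the transcript AK082072, and its right border lay 224.5 kb beyond Pik3r1, which was inside the loss. The stretches between and after them read -0.0017 and 0.020.

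**Figure D3:**
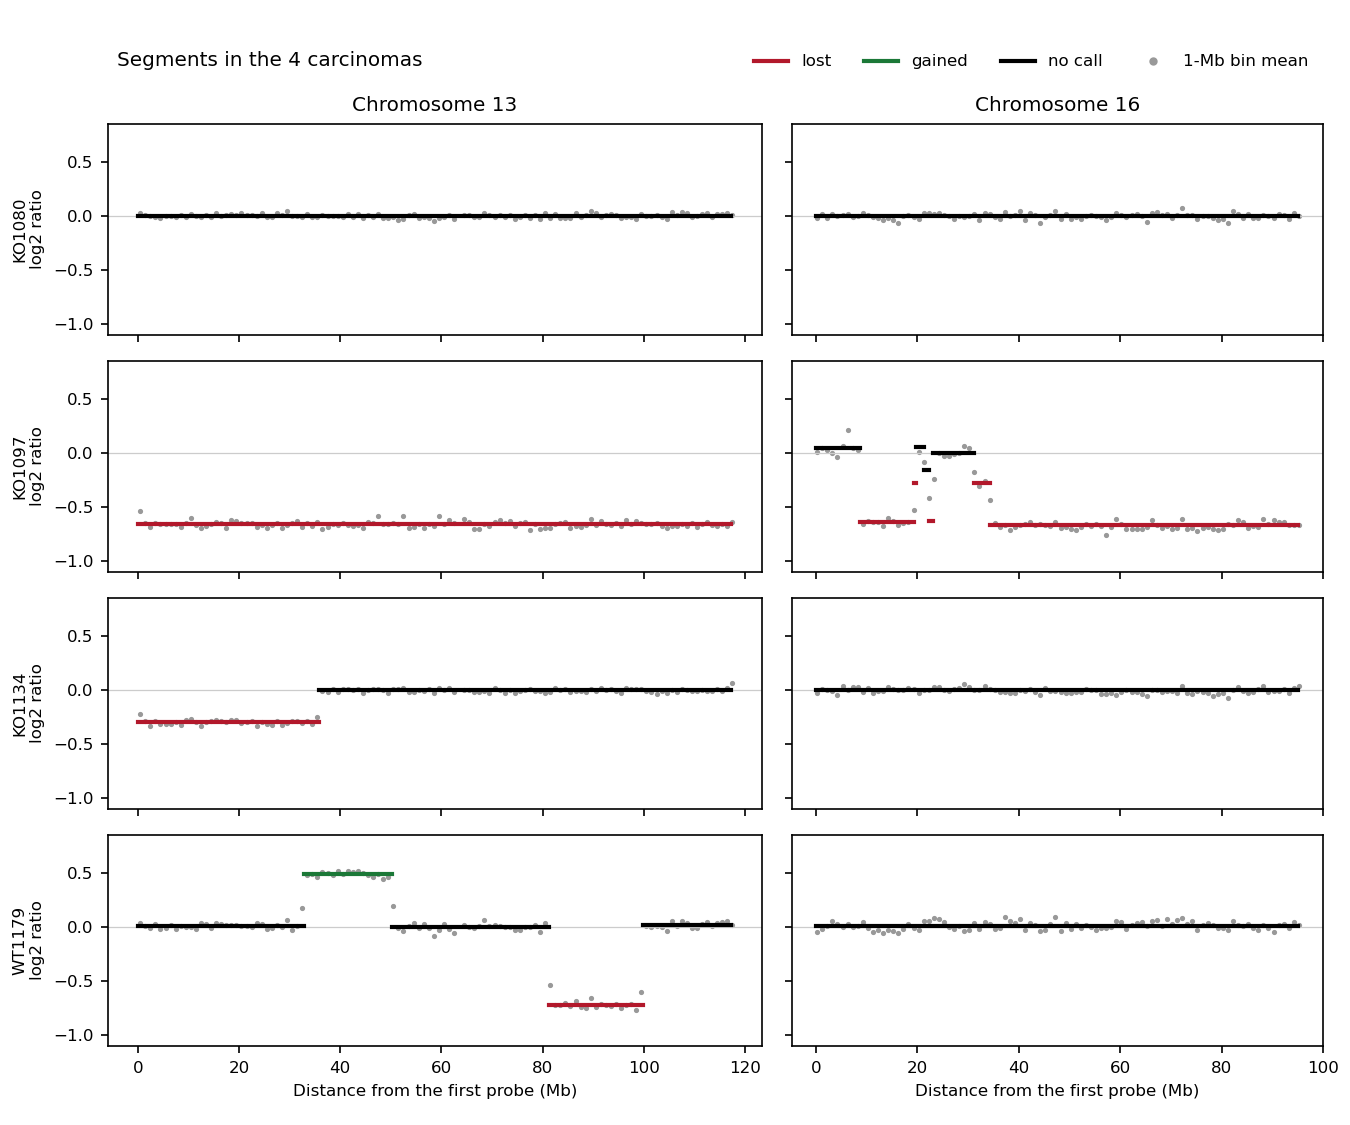
Segments of the 4 carcinomas on chromosome 13 (left) and chromosome 16 (right), by distance from the first probe in Mb. Grey points are means of 1-Mb bins, and lines are segment means, red where lost, green where gained and black where not called. KO1134 steps from -0.298 to -0.0038 once, WT1179 changes level 4 times on chromosome 13, and KO1097 has 2 depths of loss on chromosome 16.

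The losses of different carcinomas overlapped only on chromosome 13. KO1097 and KO1134 shared 35.71 Mb with 234 genes, and KO1097 and WT1179 shared 18.54 Mb with 120 genes. Since KO1097 lost the whole chromosome, both overlaps are simply the shorter loss. The losses of KO1134 and WT1179 did not meet. Over 2.91 Mb and 21 genes the calls ran in opposite directions: that stretch read -0.65 in KO1097, -0.298 in KO1134 and 0.485 in WT1179, and 0.0056 in KO1080.

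The change lay in the red channel. In KO1097 the median red signal of chromosome 13 was lower by a log2 of -0.66 than that of the tumour's uncalled stretches, while the green signal differed by 0.0031. In the losses of KO1097 on chromosome 16 the red difference was -0.645. In the loss of KO1134 it was -0.352, in that of WT1179 -0.737, and in the gain of WT1179 0.604. In the gain the green signal was also higher, by 0.165, and the other 11 arrays read 0.131 to 0.178 there.

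Single probes deviated from their segment mean in related ways in different carcinomas. Over 1180 probes lost in both KO1097 and WT1179, the deviations from the mean correlated with Pearson's r = 0.748. Where KO1097 was lost and WT1179 gained, r was 0.152 over 1180 probes, and where WT1179 had no call it was 0.435 over 5152 probes. KO1080, which had no call there, gave r = 0.590 with WT1179 over that tumour's loss. These arrays share a slide, a reference DNA and the probes themselves, so r is a description.

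Within a carcinoma, the losses on chromosomes 13 and 16 were on average about as deep as those on chromosomes 4 and 12, on which all 4 carcinomas had losses. In KO1097 the called losses averaged -0.66 on chromosome 13, -0.64 on chromosome 16, -0.65 on chromosome 4 and -0.61 on chromosome 12. In KO1134 they averaged -0.298 on chromosome 13, -0.303 on chromosome 4 and -0.303 on chromosome 12. In WT1179 they averaged -0.72 on chromosome 13, -0.73 on chromosome 4 and -0.72 on chromosome 12. Between carcinomas, the average depth on chromosome 13 ran from -0.298 in KO1134 to -0.72 in WT1179, a wider range than these averages spanned within any of the 3. Single losses spread wider than the averages. In KO1097 they ran from -0.67 to -0.28 on chromosome 16 and from -3.60 to -0.63 on chromosome 4. In KO1134 they ran from -4.00 to -0.28 on chromosome 4. KO1080 lost chromosomes 4 and 12 at -0.43 and -0.41 and kept both 13 and 16.

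**Figure D4:**
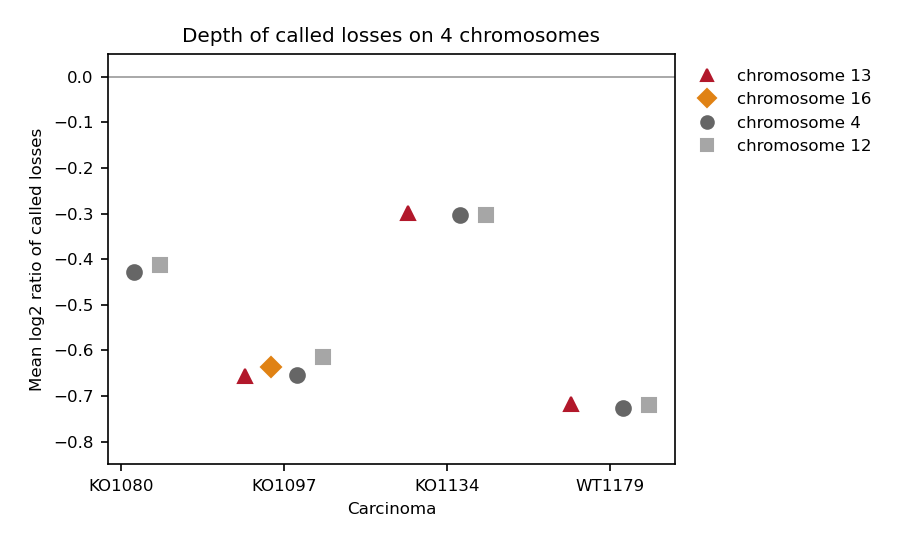
Mean log2 ratio of all called losses on chromosomes 13, 16, 4 and 12 in each carcinoma, weighted by probes. Symbols of one carcinoma lie close together, near -0.65 in KO1097, -0.30 in KO1134 and -0.72 in WT1179. KO1080 has no symbol for chromosomes 13 and 16.

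Of the 1527 genes on the 2 chromosomes, 1345 lay inside called losses in KO1097, against 17.3% of all autosomal genes in that tumour. In KO1134 234 genes did, against 31.8% of all autosomal genes. In WT1179 120 genes lay inside the loss and 126 inside the gain, against 15.2% lost and 5.27% gained over all autosomes. In KO1080 0 did, against 10.4%. These shares are not a result about the 2 chromosomes, which were chosen for such losses. In the 8 lymphomas 7.29% of gene values over all autosomes lay inside calls, with 0 on chromosomes 13 and 16.

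The cancer gene list had 23 of 26 members on the array. In KO1097 22 of these were inside losses (95.7%, against 88.1% of all genes on the 2 chromosomes). In KO1134 2 were (8.7%, against 15.3%), and in WT1179 3 were (13%, against 7.9%). Positions given with genes are the mm9 span of the gene's probes. Pik3r1, the regulatory subunit of phosphoinositide 3-kinase (8 probes, chr13:102459422-102536771), read -0.72 in KO1097, -0.0050 in KO1134, -0.77 in WT1179 and -0.02 in KO1080. Its 8 lymphoma values had a lowest of -0.037, a median of 0.061 and a highest of 0.148. The 2 carcinomas that lost it lay below all other tumours. Rasa1, a GTPase-activating protein that switches off Ras (8 probes, chr13:85362915-85422455), read -0.70 in KO1097, -0.68 in WT1179, -0.031 in KO1134 and 0.0020 in KO1080, and between 0.014 and 0.226 in lymphomas. Gli3, a transcription factor of the hedgehog pathway (29 probes, chr13:15562903-15819694), read -0.72 in KO1097, -0.387 in KO1134, 0.079 in WT1179 and 0.0040 in KO1080, and -0.092 to 0.034 in lymphomas. Crebbp, an acetyltransferase near the start of chromosome 16 (15 probes, chr16:4088559-4207746), was the member that KO1097 kept, at 0.033 there and 0.041 to 0.292 in lymphomas.

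The DNA repair list had 13 of 14 members on the array. All 13 were inside losses in KO1097, against 88.1% of all genes on the 2 chromosomes. In WT1179 5 were (38.5%, against 7.9%), and in KO1134 0 were (against 15.3%). The 5 in WT1179 lie in its 1 loss on chromosome 13. Msh3, a mismatch repair protein that binds insertion loops (13 probes, chr13:92991108-93117239), read -0.66 in KO1097, 0.041 in KO1134, -0.73 in WT1179 and 0.108 in KO1080, and 0.024 to 0.129 in lymphomas. Xrcc4, a scaffold of the ligase of non-homologous end joining (27 probes, chr13:89990697-90228613), read -0.68 in KO1097, -0.74 in WT1179, 0.0090 in KO1134 and 0.024 in KO1080, and -0.047 to 0.089 in lymphomas. Prkdc, the catalytic subunit of DNA-dependent protein kinase (19 probes, chr16:15638344-15834832), read -0.70 in KO1097 and -0.046 to -0.0010 in the other 3 carcinomas. Its lymphoma values ran from 0.054 to 0.273, above all 4 carcinomas. Polq, the polymerase of alternative end joining (8 probes, chr16:37016357-37088537), read -0.30 in KO1097. It lay in a shallow loss that was not called with median centring.

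The list of iron and oxidative stress genes had 12 of 13 members on the array. In KO1097 11 were inside losses (91.7%, against 88.1% of all genes on the 2 chromosomes). In KO1134 2 were (16.7%, against 15.3%), and in WT1179 0 were (against 7.9%). The 2 genes lost in KO1134, Bmp6 and Txndc5, were inside the gain of WT1179. Bmp6, a ligand that raises hepcidin in response to iron (16 probes, chr13:38442400-38585020), read -0.62 in KO1097, -0.283 in KO1134, 0.515 in WT1179 and -0.0070 in KO1080. Its lymphoma values lay between -0.045 and 0.059, so 3 carcinomas stood outside them, 2 below and 1 above. Txndc5, a protein disulfide isomerase of the endoplasmic reticulum (3 probes, chr13:38595109-38618834), read -0.67 in KO1097, -0.251 in KO1134, 0.511 in WT1179 and 0.155 in KO1080, and 0.068 to 0.519 in lymphomas. Tfrc, the transferrin receptor (2 probes, chr16:32615620-32627302), lay in a kept stretch of chromosome 16 in KO1097 and read 0.076 there, within the lymphoma range of -0.043 to 0.263. Sod1, which converts superoxide to hydrogen peroxide, had a single probe. It read -0.52 in KO1097, 0.266 to 0.299 in the other 3 carcinomas and 0.194 to 0.81 in lymphomas, so that probe sat above 0 wherever it was not lost.

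The kidney tubule list had all 15 members on the array. In KO1097 14 were inside losses (93.3%, against 88.1% of all genes on the 2 chromosomes). In KO1134 2 were (13.3%, against 15.3%), and in WT1179 2 (13.3%, against 7.9%). Slc34a1, the sodium phosphate transporter of the proximal tubule (3 probes, chr13:55501670-55515565), read -0.59 in KO1097, -0.158 to -0.017 in the other 3 carcinomas and -0.141 to 0.122 in lymphomas. Slc17a3, an organic anion transporter (3 probes, chr13:23936885-23949778), read -0.63 in KO1097, -0.275 in KO1134, 0.106 in WT1179 and 0.148 in KO1080, and -0.061 to 0.147 in lymphomas. Dmgdh, a mitochondrial enzyme of choline breakdown (10 probes, chr13:94449350-94522715), read -0.57 in KO1097, -0.58 in WT1179, 0.086 in KO1134 and 0.065 in KO1080, and -0.065 to 0.070 in lymphomas. Cldn16, a claudin of the thick ascending limb (2 probes, chr16:26471175-26481075), read -0.187 in KO1097 in a stretch with no call, below the lymphoma range of -0.010 to 0.234.

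The lymphoid list had 15 of 18 members on the array. In KO1097 13 were inside losses (86.7%, against 88.1% of all genes on the 2 chromosomes). In KO1134 2 were (13.3%, against 15.3%), and in WT1179 0 were (against 7.9%). The gain of WT1179 held 1. Bcl6, a transcriptional repressor of germinal centre B cells (3 probes, chr16:23969407-23986004), lay in a kept stretch and read 0.114 in KO1097, -0.103 to 0.026 in the other 3 carcinomas and 0.029 to 0.326 in lymphomas. Irf4, a transcription factor of plasma cells (2 probes, chr13:30845788-30851437), read -0.56 in KO1097, -0.273 in KO1134, 0.125 in WT1179 and 0.057 in KO1080, and -0.063 to 0.202 in lymphomas. Runx1, a transcription factor of blood stem cells (20 probes, chr16:92605192-92816380), read -0.69 in KO1097, -0.037 to 0.0 in the other 3 carcinomas and -0.031 to 0.167 in lymphomas. The gained member was Ly86, a partner of the receptor CD180 on B cells (6 probes, chr13:37445394-37502338), at 0.404 in WT1179. Over all 1527 genes the median was -0.64 in KO1097, -0.011 in KO1134, 0.0060 in WT1179 and 0.0070 in KO1080, and each list's median in KO1097 lay between -0.671 and -0.595. Slc17a1, a phosphate and anion transporter, read -0.09 in KO1134 although it lay inside a called loss there.

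In the lymphomas 0 of 35 segments passed the threshold, and segment means ran from -0.098 to 0.208. The segment nearest to it was the whole of chromosome 16 in KO1111, at 0.208, a ratio of 1.16. Chromosome 16 was the highest of the 19 autosomes in KO1111, and chromosome 13, at -0.048, was the lowest. WT1113 had 11 segments on chromosome 16 between -0.098 and 0.184, more than any other lymphoma, and KO1414 had 3 between 0.053 and 0.109. Over the autosomes, WT1113 and WT1114, both on slide 2, had the most alike profiles of any pair of lymphomas. Their r was 0.755 over 2397 bins of 1 Mb, and 0.865 over the 214 bins on chromosomes 13 and 16. KO1414 on slide 3 and KO1111 on slide 2 gave r = 0.848 over the same 214 bins. KO1111 and KO1077, both on slide 2, gave r = -0.006 there. The 214 bins pool both chromosomes, so a difference in level between chromosomes 13 and 16 enters r. The levels were -0.048 and 0.208 in KO1111, -0.016 and 0.078 in KO1414, and 0.046 and 0.031 in KO1077. Likeness of the profiles within each chromosome was not tested. Just inside the threshold lay the 3 shallow losses of KO1097 and KO1134, at -0.279, -0.281 and -0.298. Just outside it lay 0.208 in KO1111 and 0.184 in WT1113.

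Among lymphomas, genotype and treatment were tested, since the chromosomes were chosen by losses in carcinomas. The lymphoma values come from the same data, and whether they also played a part in the choice is not known. On chromosome 16 the mean level was 0.106 ± 0.092 in KO lymphomas (SD, n = 3) and 0.037 ± 0.016 in WT lymphomas (SD, n = 5), a difference of 0.069. The exact permutation test, two-sided, gave p = 0.0893, and 0.357 after Benjamini-Hochberg adjustment over the 4 tests of this kind. The difference was 0.079 within slide 2 (2 KO and 2 WT) and 0.043 within slide 3 (1 KO and 3 WT), and it was 0.017 without KO1111 and 0.106 without KO1077. On chromosome 13 the mean was -0.0061 ± 0.048 in KO lymphomas and 0.017 ± 0.0055 in WT lymphomas, a difference of -0.023 (exact permutation p = 0.357, adjusted 0.714). Within slides it was -0.021 on slide 2 and -0.030 on slide 3. It was -0.0017 without KO1111, -0.0487 without KO1077 and -0.0008 with median centring. KO lymphomas lay on both sides of the WT lymphomas there, 1 above all 5 and 2 below all 5.

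Treatment gave smaller differences. On chromosome 13 the mean was 0.0102 ± 0.035 in Fe-NTA lymphomas (SD, n = 5) and 0.0045 ± 0.018 in untreated lymphomas (SD, n = 3), a difference of 0.0057 (exact permutation p = 0.839, adjusted 0.839). Its sign turned with normexp (-0.0199), with the median over probes (-0.0064), without KO1077 (-0.0032) and without KO1414 (-0.0046). On chromosome 16 it was 0.075 ± 0.075 in Fe-NTA lymphomas and 0.042 ± 0.034 in untreated lymphomas, a difference of 0.033 (exact permutation p = 0.696, adjusted 0.839), and -0.0007 without KO1111. Only slide 3 held both arms, and WT1121 against the 3 untreated lymphomas differed there by 0.0084 on chromosome 13 and 0.0125 on chromosome 16. The smallest p these tests allow is 0.0179. None of the 4 differences exceeded the spread between tumours by these tests, which does not show that the groups are alike.

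The same questions were put to single genes in 1 limma fit over 20269 autosomal genes and 12 tumours, with tumour type, genotype and treatment as terms. The carcinomas, on whose values the chromosomes were chosen, enter the genotype coefficient of this fit. They also enter the estimate of spread that the genotype and treatment terms share. The counts and p-values of the 12-tumour fit on these chromosomes are therefore a description for both terms. For genotype, 0 of the 1527 genes had an adjusted p under 0.05, against 0.0641% of all autosomal genes, and 18 (1.18%) had an unadjusted p under 0.05, against 5.23% of all. In limma on the 8 lymphomas alone, 0 of 1527 passed for genotype, against 0.0592% of all autosomal genes, and 43 (2.82%) had an unadjusted p under 0.05, against 4.89% of all. The smallest adjusted p of a member was 0.934 there. For treatment, 0 of 1527 passed over 12 tumours, against 0% of all autosomal genes, and 53 (3.47%) had an unadjusted p under 0.05, against 9.75% of all. The smallest adjusted p of a member from limma was 0.218. In the lymphomas alone, 0 of 1527 passed for treatment, against 0.00987% of all genes, with 166 (10.9%) under an unadjusted p of 0.05, against 12.1% of all, and a smallest adjusted p of 0.205. The median SE of a gene in the 12-tumour fit was 0.111 for genotype and 0.131 for treatment. The unadjusted counts of members rose when KO1097 was left out of the limma fit. For genotype 67 of 1527 then had an unadjusted p under 0.05, against 1200 of all 20269 genes. For treatment 122 of 1527 did, against 1956 of all. Without WT1121, treated and untreated lymphomas lay on different slides, and 9 of the 1527 genes (0.589%) passed for treatment, 7 higher and 2 lower, against 305 of all 20269 (1.5%).

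The genes with the smallest p are given as values only. For genotype these were AK033041, Mylip and AK015835. All 3 lie inside both the gain of WT1179 and the loss of KO1097, so their coefficients use the values by which the chromosomes were chosen, and are left out. AK033041, a transcript with 1 probe on chromosome 13, read -0.103 to 0.403 in KO lymphomas and 0.039 to 1.235 in WT lymphomas, and -0.703 in KO1097, -0.04 in KO1134 and 0.05 in KO1080 against 0.741 in WT1179. AK015835, also with 1 probe, read 0.032 to 0.033 in KO lymphomas and 0.049 to 0.393 in WT lymphomas, and -0.268 in KO1097, 0.174 in KO1134 and 0.188 in KO1080 against 0.471 in WT1179. Mylip, an E3 ubiquitin ligase that lowers the LDL receptor, read -1.069 in KO1097, -0.58 in KO1134 and -0.732 in KO1080, against 0.288 in WT1179. Its lymphoma values were -0.091 to 0.041 in KO and 0.018 to 0.22 in WT, and 1 of its 2 probes is among the single low probes of carcinomas. For treatment these were ENSMUST00000160405, AK018484 and ENSMUST00000127413, all on chromosome 16. ENSMUST00000160405 (3 probes) read 0.099 to 0.30 in Fe-NTA lymphomas and -0.146 to -0.015 in untreated lymphomas. AK018484 (1 probe) read -0.022 to 0.312 in Fe-NTA and -0.281 to -0.156 in untreated lymphomas. ENSMUST00000127413 (1 probe) read -0.137 to 0.281 in Fe-NTA and -0.507 to -0.191 in untreated lymphomas. Only WT1121 among the Fe-NTA lymphomas shared slide 3 with the untreated ones. It gave the lowest Fe-NTA value at each of these genes, at 0.099, -0.022 and -0.137.

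Single probes on chromosomes 13 and 16 behaved unlike the segments around them. There were 10 probes that read at least 0.5 below their neighbours in all 4 carcinomas and at least 0.3 below every lymphoma, after the running median of 51 probes was taken away. Their sequences are printed because each low reading rests on that one oligonucleotide, with CG dinucleotides in capitals.
no gene name, chr13:35231018-35231077: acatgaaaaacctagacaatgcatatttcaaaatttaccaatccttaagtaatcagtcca
Mylip, chr13:45496416-45496475: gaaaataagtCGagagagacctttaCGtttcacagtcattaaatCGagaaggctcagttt
Fgfr4, chr13:55263480-55263539: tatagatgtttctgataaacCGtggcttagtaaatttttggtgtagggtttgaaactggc
Atg10, chr13:91133276-91133335: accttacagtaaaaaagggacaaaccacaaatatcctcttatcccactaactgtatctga
AK033636, chr13:98284374-98284433: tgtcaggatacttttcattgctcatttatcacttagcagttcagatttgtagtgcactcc
Nlrc3, chr16:3974885-3974944: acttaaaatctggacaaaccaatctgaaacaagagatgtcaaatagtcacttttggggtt
Fgd4, chr16:16499759-16499818: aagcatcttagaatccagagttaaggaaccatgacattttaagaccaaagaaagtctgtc
Arvcf, chr16:18405108-18405165: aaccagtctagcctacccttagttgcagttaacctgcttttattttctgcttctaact
no gene name, chr16:23437158-23437217: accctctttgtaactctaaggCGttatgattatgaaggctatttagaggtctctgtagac
Atp5j, chr16:84834635-84834694: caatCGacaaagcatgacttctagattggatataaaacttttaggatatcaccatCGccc

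In these 10 probes the mean distance from the neighbours was -1.92 to -1.07 in carcinomas and -0.28 to 0.05 in lymphomas. The probe in Atp5j, a subunit of the mitochondrial ATP synthase, read -1.97 in KO1097, -1.86 in KO1134, -1.51 in WT1179 and -1.93 in KO1080, and -0.06 to 0.32 in lymphomas. The probe in Fgfr4, a receptor for fibroblast growth factors, read -1.65 in KO1097, -1.36 in KO1134, -1.30 in WT1179 and -0.89 in KO1080, and -0.31 to 0.16 in lymphomas. The probe in Atg10, an enzyme of autophagy, read -2.16 in KO1097, -1.85 in KO1134, -2.43 in WT1179 and -1.0 in KO1080, and -0.12 to 0.03 in lymphomas. That the carcinomas lay below every lymphoma, relative to the neighbouring probes, was required by the rule that picked the 10. The probes nearest to the 10, 6.2 to 52.1 kb away, averaged -0.27 to 0.26 from the running median. The low readings of KO1080, which had no call on either chromosome, were likewise required by the rule.

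The red signal of the 10 probes had a median of 699.5 in carcinomas and 1728 in lymphomas, and the green signal 1879 in carcinomas and 1798 in lymphomas. The dinucleotide CG was present in 4 of the 10, and in 36.3% of all 13733 members, on either strand since it is its own reverse complement. Over all autosomes 109 probes met the same rule on slide 1, and 48 were high by the mirrored rule, 4 of them on chromosomes 13 and 16. On slide 2, 0 probes were low in this way, 142 were high by the mirrored rule, and 11 of those lay on chromosomes 13 and 16. On slide 3, 12 were low. Slide 1 held only carcinomas, so a property of that slide and a property of the tumours cannot be told apart.

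**Figure D5:**
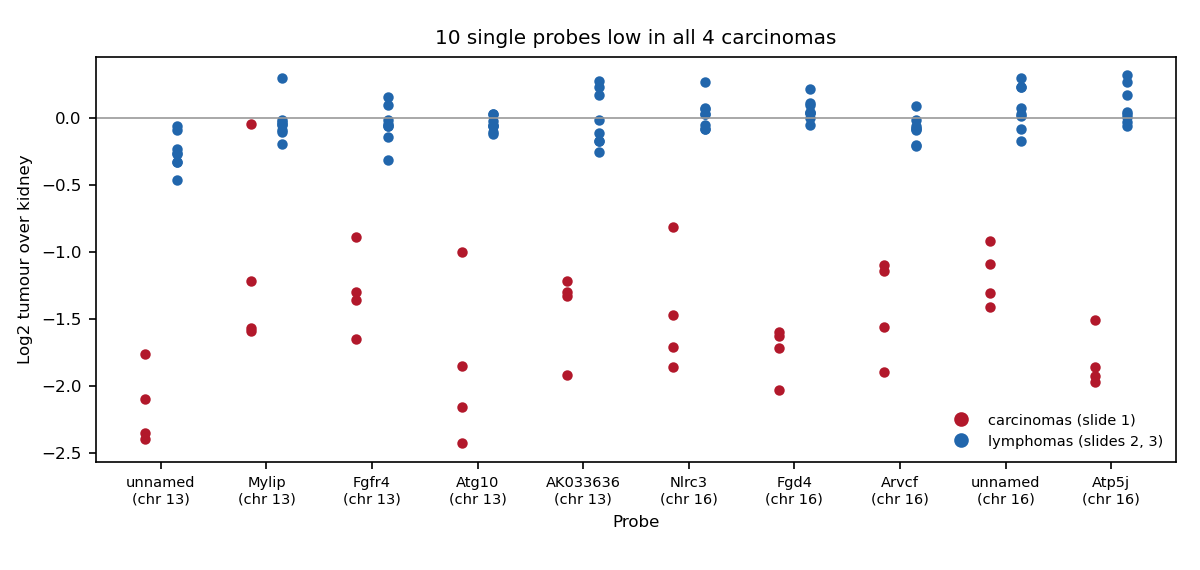
Log2 tumour over kidney of 10 single probes that were picked as low in carcinomas. The 4 carcinomas (red, slide 1) are left of the 8 lymphomas (blue, slides 2 and 3) at each probe. Carcinomas lie below lymphomas at 9 probes, and at the Mylip probe WT1179, which gained that stretch, reads -0.04.

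Among the 982 genes with at least 2 probes, the lowest in carcinomas relative to their own segment were Fgfr4 (-0.71 ± 0.195, SD, n = 4), Mylip (-0.48 ± 0.230) and Nlrc3, a regulator of innate immunity (-0.326 ± 0.078). In lymphomas the same 3 genes lay at -0.071, 0.051 and 0.017. Each of these 3 genes holds 1 of the 10 probes. The highest in carcinomas were Fbxw17 (0.257 ± 0.045), Naip6 (0.247 ± 0.171) and Acot13 (0.205 ± 0.239), and Naip6 belongs to a family of near-identical copies whose signals a probe may not separate. Over all 12 tumours, Fgfr4 (-0.285), AK135041 (-0.224), ENSMUST00000160494 (-0.184), Abcf3 (-0.174) and Itgb2l (-0.164) were the lowest. Map3k13 (0.309), Tmprss2 (0.286), Ero1lb (0.269), Fyttd1 (0.255) and Abhd10 (0.226) were the highest. Ero1lb, an oxidase of protein folding, was above its segment in all 12 tumours, by 0.176 to 0.384, and Tmprss2, a membrane protease, by 0.101 to 0.427.

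A far lower reading belonged to a probe on chromosome 16 with no gene name, printed here because it is extreme in 2 tumours of different type.
chr16:60977035-60977094: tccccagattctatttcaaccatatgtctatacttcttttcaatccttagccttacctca
It read -3.52 in KO1097 and -1.09 in KO1134, against -0.21 in KO1080 and -0.18 in WT1179. Among lymphomas it read -6.02 in WT1405, -1.05 in KO1077 and -0.72 in KO1111, and between -0.33 and -0.10 in the other 5. Over both chromosomes 78 probes lay more than 1 from their neighbours in at least 1 tumour, 38 of them in 1 tumour only and 0 in all 12.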

How the data were processed

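Genomic DNA of 12 tumours was labelled red (Cy5) and normal kidney DNA green (Cy3), per the labels. The deposited intensity values were processed by Agilent Feature Extraction 10.7.1.1, which subtracted background, removed spatial trends and scaled the dyes linearly, per the file headers. Positions are those of mm9, per the file headers. The deposited log10 ratio column of the same files and the deposited series table, which matched the uncentred log2 red-over-green ratio of processed signals (r of at least 0.999943, column medians -0.02 to 0.0248), were alternatives. Centring here was on the mode of the autosomes, taken from the running median of 51 probes.

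From these intensity values, log2 red over green was computed per spot, outlier-marked spots were dropped and repeated spots averaged per probe. The 69 members with repeated spots gave 14009 member spots in all. Segments came from penalised least squares with a penalty of 10. Steps of fewer than 5 probes were removed and the rest segmented again. The segmentation and the limma fit were each tested on simulated data with known changes. A gene's value is the mean of its probes, and gene names are those of the array: of 1527, 956 are current symbols, 100 older ones and 471 were not matched. Genotype and treatment were tested with limma 3.58.1 (lmFit and eBayes, R 4.3.3) with Benjamini-Hochberg adjustment over 20269 autosomal genes, and lymphoma chromosome means with exact permutation tests. The labels name 1 animal per array, so p-values measure the spread between animals. The number of arrays limits the precision.

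The members, gene lists and tests were chosen with earlier results of these data known. Named genes are those of fixed lists, those at borders of called segments, the 3 with the smallest p per test where none passed, and those farthest from their segment. Among borders, those of calls up to 1 Mb (AF177147, Cldn1 and Tprg) were named after their values were seen. Strand, transcript models and exons were not used here, since no mm9 annotation was at hand.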

Additional observations from a re-analysis of the deposited data

Results flagged for a closer look

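Of 82 groups of values checked for a sample far from the others, 11 held one, where chance gives about 1 in 20 for independent groups. These groups share tumours and chromosomes and are not independent, so their count cannot be set against that rate. KO1097 stood apart among the 4 carcinomas on chromosome 13, with a mean of -0.655 against -0.098 in the nearest carcinoma, and on chromosome 16, with -0.483 against -0.005. These 2 also rest on the values by which the chromosomes were chosen, so the rate that chance gives does not apply to them on that ground too. KO1111 stood apart among the 8 lymphomas on chromosome 16, with 0.208 against 0.078 in KO1414.

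Among list genes in lymphomas, 8 had a tumour far from the rest. In 6 of them, all on chromosome 16, it was KO1111, whose whole chromosome 16 was high: Crkl at 0.327, Trp63 at 0.309, Dyrk1a at 0.303, Sod1 at 0.81, Kcnj15 at 0.241 and Runx1 at 0.167. On chromosome 13, Txndc5 read 0.519 in WT1420 against 0.202 in the next lymphoma, and Slc17a1 read 0.119 in WT1405 against 0.043. Sod1 rests on 1 probe, Txndc5 and Slc17a1 on 3 probes each.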

How the results depend on the processing

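The losses of KO1097 on chromosome 13 (100% of its length) and of WT1179 (15.8%), and the gain of WT1179 (14.9%), kept the same extent under all 10 alternatives. These were median centring, thresholds of 0.15 and 0.4, penalties of 5 and 20, normexp background correction, the log10 ratio column, the series table, outlier spots kept, and probes centred over the 12 arrays. The lost share of chromosome 16 in KO1097 lay between 76.1% and 80.8%. The loss of KO1134 was not called with median centring or at a threshold of 0.4, since its mean is shallow. At a threshold of 0.15 the whole of chromosome 16 was called gained in KO1111, and 4.37% of it in WT1113. The mean lost share of both chromosomes was 29.1 percentage points higher in carcinomas than in lymphomas, 24.5 to 29.3 under these alternatives, and 8.52 to 38.9 on leaving out 1 tumour, an alternative added after the data were seen, with the lowest value without KO1097.

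The KO minus WT differences in lymphomas kept their direction under 7 other settings and on leaving out each lymphoma. On chromosome 16 the difference ran from 0.0173 to 0.106 on leaving out 1 lymphoma, and on chromosome 13 from -0.0487 to -0.0017. The lowest adjusted p, 0.0952, came without KO1077 on both chromosomes, where each unadjusted p was the smallest that 2 against 5 tumours allow (0.0476), so these tests say nothing about stability. The Fe-NTA minus untreated difference on chromosome 13 changed sign with normexp (-0.0199) and with the median over probes (-0.0064), and ran from -0.0046 to 0.0203 on leaving out 1 lymphoma, reversed without KO1077 and without KO1414. On chromosome 16 it ran from -0.0007 to 0.0503, reversed without KO1111. The cause of these reversals was not tested. With slide as a block the differences kept their direction. For genotype, 0 genes passed in limma under all 20 alternatives. For treatment 0 passed under 19, and counts ran from 0 to 9 on leaving out 1 tumour, with 9 of 1527 without WT1121, against 305 of all 20269 genes, where treatment and slide coincide in lymphomas. No paired analysis was possible because no animal number occurs in more than 1 group. On chromosome 13 of KO1097 the SD over probes was 0.209 in the dimmest and 0.146 in the brightest of 4 classes by green signal. Steps of fewer than 5 probes could not be called.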
